A study of Mus musculus with 12 samples.

Results

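The cytosolic ribosomal protein genes encode the protein parts of the ribosomes that translate nuclear messages. The 86 members described here were every gene in the gene tables whose protein-coding symbol begins Rpl or Rps and a digit, together with Rplp0, Rplp1, Rplp2 and Rpsa, with S6 kinases and pseudogenes left out, among 43346 annotated genes. There are 52 genes of the large subunit, 33 of the small subunit and Rps19bp1, which the symbol takes in although it encodes a protein that binds a ribosomal protein. Without Rps19bp1 and 8 paralogs (genes named after another member, such as Rpl3l), 77 core genes remain.

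All material came from 1 adult male mouse, 14 months old and of strain B6CASTF1/J, a cross of Castaneus and C57Bl6. Excised Purkinje cells, 13 in number, were homogenised as 1 pool, and 12 Smart-seq libraries (libraries 1 to 6 and 8 to 13, after their technical replicate numbers) each received 1 cell-equivalent of its total RNA above 200 bases, with spike-in RNA. Smart-seq copies polyadenylated RNA into full-length cDNA and amplifies it by PCR. Nothing was treated, and the libraries form a single group without controls, so conditions are not compared. Every spread and p-value below measures the division, amplification and sequencing of 1 pool, and a message carried by fewer cells cannot be told apart from less of it per cell.

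A ribosome holds 1 copy of nearly every ribosomal protein, built around ribosomal RNA, and the stalk proteins Rplp1 and Rplp2 are exceptions present in several copies. Vertebrate ribosomal protein messages typically start with a C followed by a run of pyrimidines, the terminal oligopyrimidine (TOP) motif, through which mTOR and the binding protein Larp1 control their translation. These genes have also left many processed pseudogenes, intronless copies made by reverse transcription, in mammalian genomes. Purkinje cells are large cerebellar neurons with a cytoplasm rich in ribosomes.

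The sequences that matter most for reading the levels are those of the copies, because a read that matches a member and a copy equally well can be assigned to either. For Rps23, a protein at the decoding centre, the coding sequence was identical to the pseudogene Rps23-ps1 over all 425 bases aligned. The first 120 coding bases of Rps23 (mm10 chr13:90922958-90924950, plus strand) and the matching bases of Rps23-ps1 (chr3:37714740-37715164, plus strand) are shown, with no base in capitals because none differs.
Rps23: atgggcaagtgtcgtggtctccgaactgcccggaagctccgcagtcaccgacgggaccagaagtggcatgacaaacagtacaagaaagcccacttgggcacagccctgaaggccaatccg
Rps23-ps1: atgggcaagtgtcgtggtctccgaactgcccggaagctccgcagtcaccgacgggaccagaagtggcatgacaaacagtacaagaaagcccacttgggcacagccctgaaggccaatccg

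Rpl37, a small zinc-finger protein of the large subunit (chr15:5116645-5119140, plus strand), differed from Rpl37rt (chr5:115102923-115110268, minus strand) at 1 of 291 coding bases. Coding bases 130 to 249 are shown, with the differing base in capitals.
Rpl37: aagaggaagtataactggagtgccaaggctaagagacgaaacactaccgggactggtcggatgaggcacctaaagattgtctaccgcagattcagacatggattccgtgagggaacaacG
Rpl37rt: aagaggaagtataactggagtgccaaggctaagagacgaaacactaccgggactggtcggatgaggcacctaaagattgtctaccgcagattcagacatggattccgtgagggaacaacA

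Other duplicates have diverged further and are easier to tell apart. Rps27 (chr3:90212522-90213651, minus strand) and its paralog Rps27l (chr9:66946086-66949516, plus strand) were 78.9% identical over 213 aligned coding bases, and 30 of the 120 bases from coding base 121 to 240 differed, shown in capitals.
Rps27: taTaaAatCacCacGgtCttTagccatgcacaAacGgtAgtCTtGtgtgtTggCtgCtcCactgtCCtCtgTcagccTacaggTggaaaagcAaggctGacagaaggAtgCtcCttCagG
Rps27l: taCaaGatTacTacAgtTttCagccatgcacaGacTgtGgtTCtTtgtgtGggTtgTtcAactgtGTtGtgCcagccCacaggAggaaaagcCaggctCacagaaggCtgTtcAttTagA

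The members were abundant and present in nearly every library. A message was counted as detected at an expected count (the deposited read estimate for a gene) of at least 1, and 79 of the 86 members reached it in all 12 libraries. At a count of at least 50, 72 did so. Among all annotated genes, 3667, or 8.46%, were detected in every library. Rpl3l, Rpl10l and Rpl39l had no count in any library, and the other 4 were Rps12, Rpl5, Rpl7l1 and Rps19bp1. Of the core genes, 75 of 77 were detected everywhere.

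Levels are given in TPM (a length-scaled share of a library's transcripts, here with the spike-ins included). The 86 members summed to 30965 ± 4083 TPM (SD, n = 12), from 21526 in library 1 through a median of 31307 to 35728 in library 11. They took 1.73 ± 0.274% of the counts assigned to genes. The large-subunit members summed to 17657 ± 2383 TPM and the small-subunit members to 13300 ± 1975 TPM. The core genes had a median level of 338 TPM, against 11.6 TPM for the 12184 annotated genes with a mean of at least 1 TPM. Nuclear genes for the mitochondrial ribosome, a separate machine that translates only mitochondrial messages, stood lower: 77 of them summed to 9029 ± 1385 TPM, with a median of 76.6 TPM. No test was made of that difference.

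**Figure D1:**
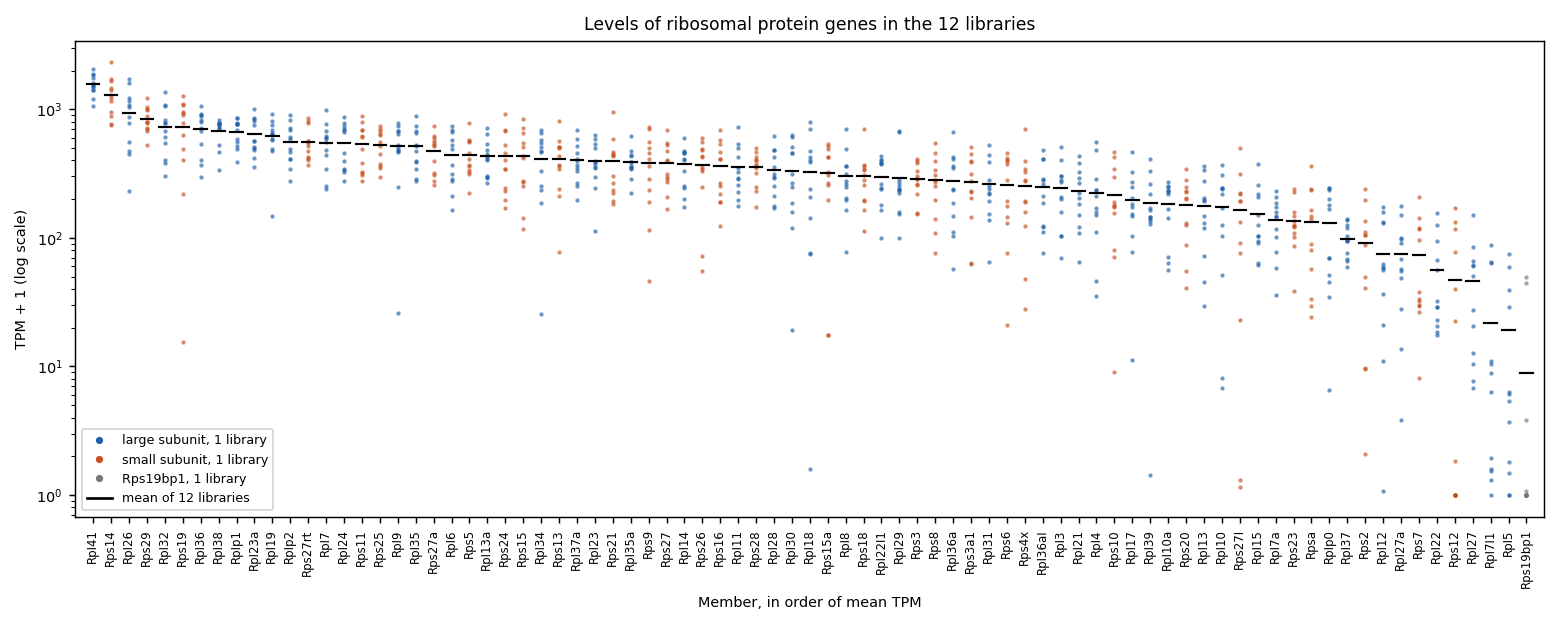
TPM + 1 on a log scale for members with counts, in order of mean TPM; each point is 1 of 12 libraries (large subunit blue, small subunit orange, Rps19bp1 grey) and each bar is the mean. Rpl41 leads at a mean of 1561 TPM and Rps14 stands at 1299 TPM, and the spread between libraries widens toward the low end, where Rps12, Rpl5, Rpl7l1 and Rps19bp1 reach 0.

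Rpl41, which encodes a tiny basic peptide of the large subunit, had the highest mean and the smallest relative spread of any member. It ranged from 1050 TPM in library 1 through a median of 1523 to 2062 in library 8, a mean of 1561 ± 291 TPM and a coefficient of variation (CV, the SD as a percent of the mean) of 18.6%. Rps14, a platform protein lost in the human 5q deletion syndrome, ran from 752 in library 1 through 1256 to 2314 TPM in library 2. The ranges of Rpl41 and Rps14 overlapped, so their order is a description of means. The 10 highest members held 30.8% of the summed TPM.

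Below Rps14 came Rpl26 (930 ± 458 TPM), Rps29 (845 ± 193), Rpl32 (733 ± 318), Rps19 (732 ± 385), Rpl36 (698 ± 246), Rpl38 (680 ± 153) and Rplp1 (668 ± 154). Each neighbour in this order differed from the next by less than the SD between libraries. Rps19, the gene most often mutated in Diamond-Blackfan anemia, had a median of 837 TPM and a highest value of 1277 TPM in library 10. In library 12 it stood at 14.4 TPM, far under the next lowest, 216 TPM in library 8. In the same library 12, Rpl17, Rpl30 and Rpl4 were also at their lowest, at 10.2, 18.1 and 34.6 TPM.

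Such single low libraries also occurred in other members that were otherwise well measured. How often they occur among the members or among all genes was not counted. Rpl39, a protein lining the exit tunnel, stood at 127 TPM or more in 11 libraries and at 0.44 TPM, or 3 counts, in library 5. Rpl18 likewise had 3 counts (0.58 TPM) in library 1, against 74.4 TPM or more in the other 11 and 792 TPM in library 13. Rpl12 had 1.46 counts in library 9 and reached 172 TPM in library 11. Because all libraries came from 1 homogenate, these lows are differences between aliquots and their handling. Which step gives rise to them was not tested.

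At the low end, 14 members had a mean under 100 TPM, the 3 without counts among them. Rps12 had no count in 5 libraries, 0.84 TPM in library 10 and 171 TPM in library 13, with a mean of 46.3 ± 61.7 TPM. Rpl5, which with Rpl11 carries the small ribosomal RNA of the large subunit and binds Mdm2 when assembly fails, was at 0 in libraries 11 and 12 and at 74.3 TPM in library 10, with a median of 4.73. Its partner Rpl11 had a median of 307 TPM and never fell under 175. Rps19bp1 was detected in 4 of 12 libraries, with 48.5 TPM in library 11 and 43.2 in library 9. The remaining low members were Rpl27 (45.5 ± 42.4 TPM), Rpl22 (54.9 ± 46.4), Rps7 (72.1 ± 61.7), Rpl27a (73.2 ± 52.1), Rpl12 (73.9 ± 58.6) and Rps2 (90.01 ± 74.7), besides the paralog Rpl7l1 (20.7 ± 31.2) and Rpl37 (97.3 ± 27.7). The highest and lowest core means differed 86.0-fold, and the quartiles of the core lay at 186 and 473 TPM.

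By role, no functional site of the ribosome lacked messages. The sums and orders by role are of the members alone, without the near-identical copies described below. The stalk, which recruits the elongation factors, summed to 1430 ± 261 TPM, of which Rplp1 (668 TPM) and Rplp2 (560 TPM) held most and Rplp0 (128 TPM) and Rpl12 (73.9 TPM) little. Around the exit tunnel, through which the new chain leaves, 7 members summed to 3338 ± 710 TPM, with Rpl26 highest and Rpl39 lowest at 186 ± 106. The 4 proteins Rpl3, Rpl4, Rpl8 and Rpl10, which reach toward the core of the large subunit, summed to 941 ± 283 TPM and stood at 173 to 304 TPM each.

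In the small subunit, the 10 head proteins summed to 5071 ± 914 TPM, with Rps12 lowest. The 7 proteins of the platform and mRNA exit summed to 3255 ± 746 TPM, with Rps14 highest and Rpsa, also known as the laminin receptor, lowest at 133 ± 104. The 5 proteins of the decoding centre and mRNA entry summed to 1322 ± 244 TPM, with Rps15 highest at 430 ± 229 and Rps2 lowest. That order depends on how shared reads were split. In the same list Rps23 stood at 133 TPM alone and at 970 ± 356 TPM with its copies, against 514 ± 260 TPM for Rps15 with its copies. Rps6, whose phosphorylation by S6 kinase is widely used as a readout of mTOR activity, ran from 20.0 TPM in library 10 through 236 to 459 TPM in library 11. The 13 genes listed for Diamond-Blackfan anemia summed to 6255 ± 1210 TPM, and 12 of them were detected in every library, Rpl5 being the exception.

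Library 1 stood apart. It had the lowest summed level and was the lowest library for 16 members and the highest for 0. There 16 members lay above their own median, against 53 in library 11. The same counts over all genes were not made. Genes for the mitochondrial ribosome also had their lowest sum in library 1, 5906 TPM. In the same library the Malat1 locus, a nuclear noncoding RNA, was at 339117 TPM, against a median of 78506, and the spike-ins were at their lowest, 77036 TPM. When TPM was rescaled to annotated genes without Malat1, mitochondrial genes and their chromosome 1 copies, the members summed to 48551 ± 5085 TPM and the lowest library was library 5, at 40068. Library depth ran from 15167444 total counts in library 5 to 27806010 in library 10. Mean sums with each library left out in turn ran from 30532 to 31823 TPM.

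**Figure D2:**
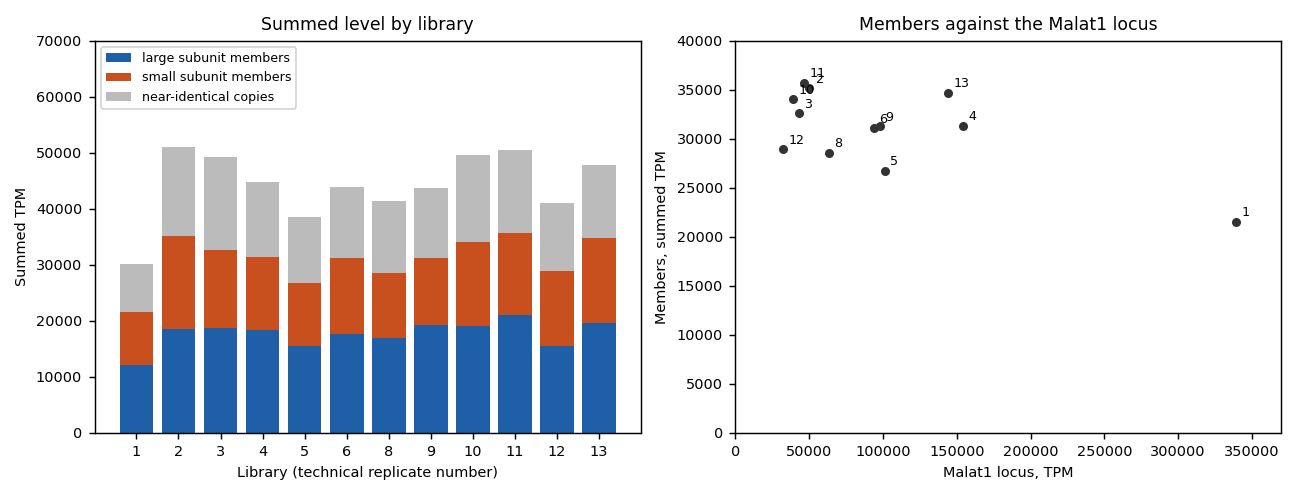
Left, summed TPM of large-subunit members, small-subunit members (with Rps19bp1 drawn in neither) and near-identical copies in each library, as stacked bars from 0; right, summed TPM of all members against TPM of the Malat1 locus, 1 point per library with its number. Library 1 has the lowest sum, 21526 TPM, and the highest Malat1 level, 339117 TPM.

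The label of the cells was checked against markers. All 10 Purkinje cell markers were detected in every library and summed to 28329 ± 5638 TPM, led by Pcp4 and Pcp2. Markers of Bergmann glia and astrocytes, which surround these cells, were also present, with 6 of 7 detected in every library and a sum of 1289 to 3514 TPM. Red blood cell markers summed to 362 to 1551 TPM, granule cell markers to 67.9 to 585 TPM, oligodendrocyte markers to 91.3 to 375 TPM, microglia markers to 0 to 446 TPM and vascular markers to 0 to 287 TPM, the vascular markers Cldn5 and Acta2 being at 0 throughout. Ribosomal protein messages are made by nucleated cells of every type, and the part of these other cells in the members' levels was not tested.

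Near-identical copies took a large share of the signal. A copy was any transcript of a pseudogene, or of a protein-coding gene outside the members, matching a member at 90% identity or more over 70% or more of its own length, a definition chosen after the data were seen. GENCODE held 1140 copies, of which 784, belonging to 80 members, were in the deposited tables. Of these 784, 172 had a mean of at least 1 TPM, 39 had at least 100 TPM and 252 had none. The copies summed to 13326 ± 2174 TPM, so the members held 69.98 ± 1.71% of the joint total, from 66.1% in library 3 to 72.7% in library 13. For 22 members the copies exceeded the member in mean TPM, and for 7 they did so in all 12 libraries.

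Among these were Rpl27, Rpl37, Rps23, Rps7, Rpl13 and Rps29. Rps23 had 133 ± 55.4 TPM and Rps23-ps1, identical to it in the bases shown above, 831. Rpl37 had 97.3 ± 27.7 TPM and Rpl37rt 881, so that Rpl37 held 10.1 ± 2.30% of its family. Rpl27, a large-subunit protein, held 5.50 ± 4.50%, with 449 TPM on Rpl27-ps3, which matched it over all 408 coding bases.

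In the families of Rps29, Rps7 and Rpl13 the leading copy again matched almost letter for letter. Rps29, a small zinc-binding protein, had 845 TPM against 1151 on Gm14303, with no mismatch in 168 coding bases. Rps7 had 72.1 TPM against 300 on Gm6472, with 3 mismatches in 582 coding bases. Rpl13 had 175 TPM against 201 on Gm15710, with 1 mismatch in 633 coding bases. The tables do not show whether such reads came from the member or the copy.

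Adding each member's copies to it changed the picture of low members. Rpl27 rose from 45.5 to 792 ± 262 TPM, Rps7 from 72.1 to 377 ± 251, Rpl27a from 73.2 to 248 ± 138, Rpl12 from 73.9 to 227 ± 182 and Rpl5 from 18.2 to 209 ± 239. Only 1 core family then lay under 100 TPM, against 9 core genes alone, the fold between highest and lowest core families was 36.1, and the core median rose from 338 to 492 TPM. That 1 family was Rpl22, a large-subunit protein with few copies in these tables. The median CV over families was 47.5%, close to the 49.6% over members alone.

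**Figure D3:**
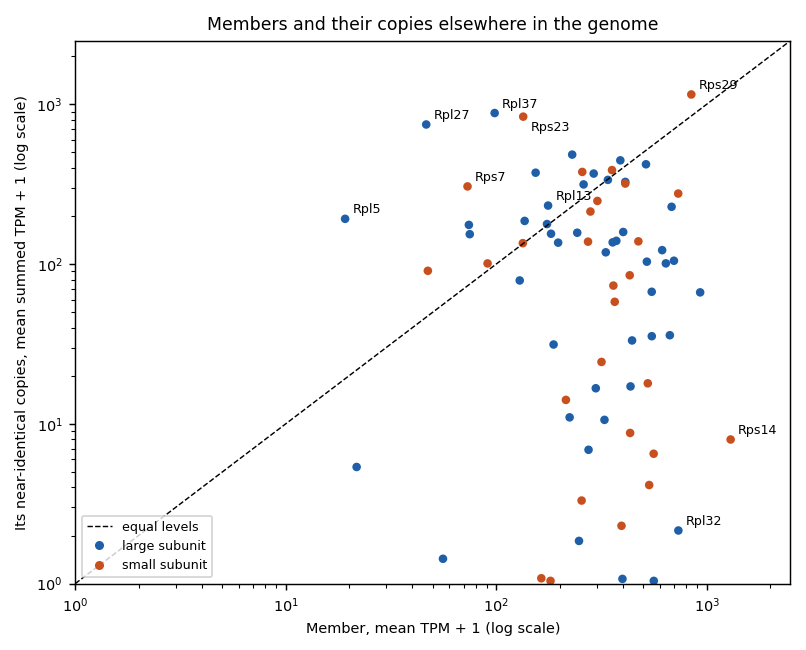
Mean TPM + 1 of each member against the mean summed TPM + 1 of its near-identical copies, both on log scales, for members and copies above 0 TPM; large subunit blue, small subunit orange, dashed line equal levels. Rpl27, Rpl37 and Rps23 lie far above the line, while Rps14 and Rpl32 lie far below it.

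Variation between the 12 libraries was compared with that of other genes. In raw terms, the median CV of the 72 members with a mean of at least 100 TPM was 46.0%, against 57.6% for all 1149 genes at that level. With edgeR's quasi-likelihood fit, each gene's dispersion was set against the trend for genes of similar count among the 13899 genes whose counts averaged 5 or more, of which 83 were members. None of the 83 was more variable than the trend at an adjusted p under 0.05, where 0.0935% of all genes were (13 genes), and at an unadjusted p under 0.05 it was 0 members and 114 genes. limma on log2(TPM + 1) also gave 0 members, where 0.0144% of all genes passed (2 genes).

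In the other direction, 9 of the 83 members were less variable than the trend, where 1.53% of all genes were (212 genes). They were Rpl37, Rps27rt, Rps27, Rpl35a, Rpl38, Rps28, Rps25, Rplp2 and Rpl13a. Some of their counts may depend on how reads shared between near-identical genes were split. Rpl37 held 10.1% of its family, Rps28 47.9% and Rpl35a 48.0%. Rpl38 held 74.6%, Rpl13a 96.5% and Rps25 96.8%, and the copies of Rplp2 averaged 0.04 TPM. Rps27 and Rps27rt are identical over all 252 coding bases, so their calls may not be separate. Whether families were less variable than the trend was not tested. Rpl37 ran from 57.8 through 94.5 to 139 TPM with a dispersion 0.060 of the trend (edgeR adjusted p = 0.0016). Rpl35a, another Diamond-Blackfan gene, ran from 222 through 374 to 618 TPM, at 0.090 of the trend (edgeR adjusted p = 0.0085). Rpl38, which has a known role in translating Hox messages, ran from 335 through 751 to 824 TPM, at 0.115 of the trend (edgeR adjusted p = 0.022). The just missed neighbour was Rps29, at 0.143 of the trend (edgeR adjusted p = 0.053).

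Across all members the dispersion lay under the trend for 74 of 83, against 6153 of 13899 genes, and the median ratio was 0.380 against 1.05. Members are short, with a median length of 675 nt against 991 nt for all genes of at least 100 TPM. Among other genes of at most 1000 nt, 137 of 2230, or 6.14%, were less variable, and 9 of 72 members of that length were. With limma on log2(TPM + 1), added after the data were seen, the count of 9 fell to 1, Rpl37 (limma adjusted p = 0.046), where 1.52% of all genes passed (211 genes), and 49 of 83 members lay under that trend against 40.5% of all genes. This alternative changed both the tool and the scale, and their parts in the fall were not tested apart. In edgeR the count was 6 among genes whose counts averaged 50 or more and 14 with no low-count filter. These filters also change the set of genes tested, and the share of all genes called under them is not given here.

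**Figure D4:**
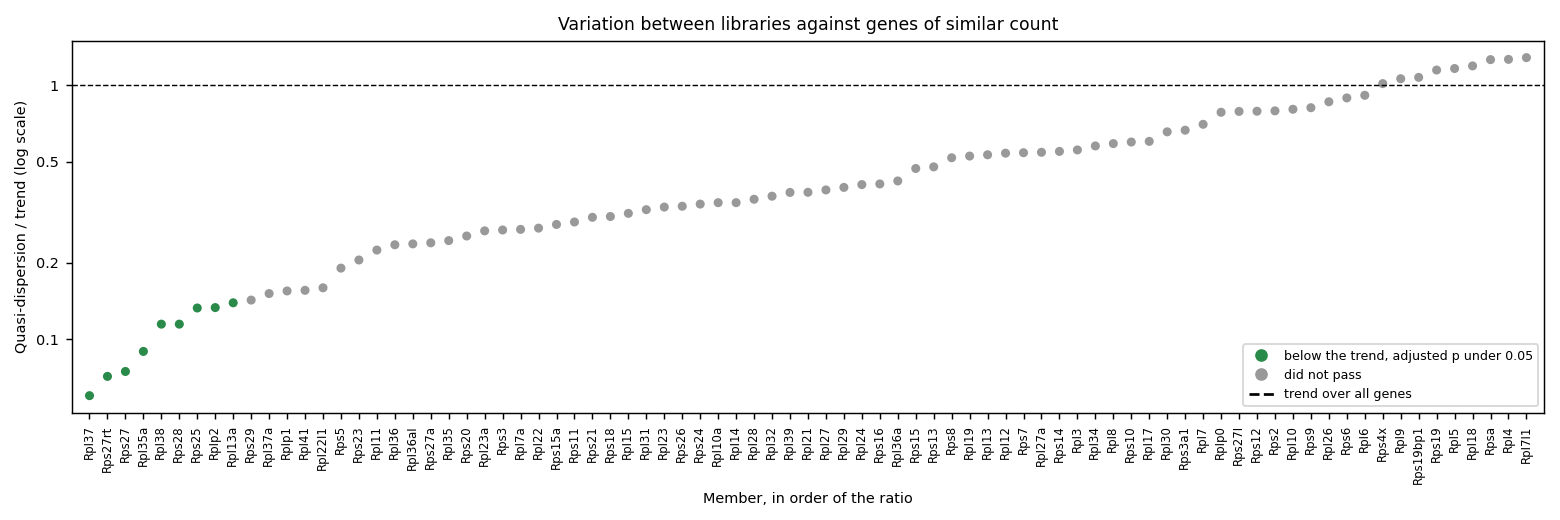
Quasi-dispersion of tested members divided by the trend for genes of similar count (log scale), in ascending order; green points passed at an adjusted p under 0.05 and the dashed line at 1 is the trend. The 9 members that passed lie at 0.139 of the trend or less, and Rpl7l1, Rpl4 and Rpsa lie highest, at 1.29, 1.27 and 1.26.

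Several ribosomal protein genes have paralogs that are used in particular tissues, and 9 pairs named after each other were compared within libraries by an exact two-sided sign-flip permutation test on log2(TPM + 1), adjusted over the 9 pairs. The smallest p this design can give is 0.000488. The muscle paralog Rpl3l and the testis paralogs Rpl10l and Rpl39l were at 0 in every library. Set against the mean TPM that a floor of 3 counts per library is worth, the mean of Rpl3 was at least 1348-fold higher than that of Rpl3l, the mean of Rpl10 at least 989-fold higher than that of Rpl10l and the mean of Rpl39 at least 665-fold higher than that of Rpl39l. These are ratios of means over 12 libraries and no bounds for a single library: Rpl10 fell to 71.1 counts in library 6, and Rpl39, with 3 counts in library 5, lay at the floor there and above it in the other 11. With the paralogs taken at 0 as listed, all 3 differences passed (exact adjusted p = 0.000732). A paralog at 0 throughout, set against a partner counted in every library, can give only the smallest p. These passes therefore add nothing to the zeros.

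Rpl22l1 stood above the gene it is named after. Rpl22 is a large-subunit protein that represses Rpl22l1 in other settings. Rpl22l1 ran from 99.5 in library 3 through 316 to 435 TPM in library 10, while Rpl22 ran from 16.7 in library 6 through 29.6 to 155 TPM in library 2. The difference was 2.70 ± 1.196 on the log2(TPM + 1) scale, higher in 12 of 12 libraries (exact adjusted p = 0.000732). Over coding bases 175 to 294 of Rpl22 (chr4:152325742-152334071, plus strand), 33 bases differed from Rpl22l1 (chr3:28805436-28807424, plus strand), shown in capitals, so these 2 messages are distinct in sequence.
Rpl22: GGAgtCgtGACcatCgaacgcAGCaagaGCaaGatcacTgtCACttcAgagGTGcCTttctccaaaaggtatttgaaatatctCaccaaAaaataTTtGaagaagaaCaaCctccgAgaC
Rpl22l1: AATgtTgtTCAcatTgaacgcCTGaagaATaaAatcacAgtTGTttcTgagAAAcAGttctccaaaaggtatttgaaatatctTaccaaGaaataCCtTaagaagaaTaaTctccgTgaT

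Rpl22l1 overlaps exons of Gm33051 on the opposite strand, and since the strand of the counting is not given, reads of the 2 cannot be told apart. The gene models also differ in length: Rpl22 averaged 1137 nt and Rpl22l1 521 nt in these tables. By counts alone, without length scaling, Rpl22l1 averaged 2428 and Rpl22 813, and on the log2 scale of counts scaled to a common library total the difference was 1.76 ± 0.957.

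Rps27rt, an intronless relative of Rps27, averaged 559 ± 167 TPM and Rps27 381 ± 154, a difference of 0.61 ± 0.28 on the log2(TPM + 1) scale in 12 of 12 libraries (exact adjusted p = 0.000732). The pair is identical over all 252 coding bases, and the deposited model of Rps27 is 255 nt long. That model therefore holds almost nothing beyond the shared coding sequence, and hardly any read could be assigned to Rps27 alone. Only the longer model of Rps27rt holds further bases. Whether the difference in 12 of 12 libraries follows from these models was not tested, so its pass does not show a higher level of Rps27rt. The model of Rps27rt is 370 nt long, and on CPM, counts scaled to a common library total without regard to length, the difference was 1.39 ± 0.27. Rps27l, which p53 can induce, averaged 163 ± 145 TPM and lay under Rps27 in 11 of 12 libraries, by 2.39 ± 2.98 (exact adjusted p = 0.00275). It stood at 0.16 and 0.31 TPM in libraries 4 and 5 and at 499 TPM in library 10. On CPM the difference of Rps27l was -0.84 ± 2.59 and did not pass (exact adjusted p = 0.340).

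Rpl7l1 lay under Rpl7 in 12 of 12 libraries, with 20.7 ± 31.2 against 548 ± 216 TPM. Rps4l, annotated as a transcribed pseudogene and so no member, lay under the X-linked Rps4x in 11 of 12 libraries, at 42.4 ± 45.0 against 254 ± 180 TPM (exact adjusted p = 0.00188). Rpl36al, on chromosome 12, and the X-linked Rpl36a stood at 246 ± 134 and 274 ± 176 TPM. Their difference of -0.06 ± 1.24 on the log2(TPM + 1) scale had either sign, with Rpl36al higher in 7 of 12 libraries, and did not pass (exact adjusted p = 0.868). That does not show equal levels, since its SD spans more than a doubling in each direction.

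**Figure D5:**
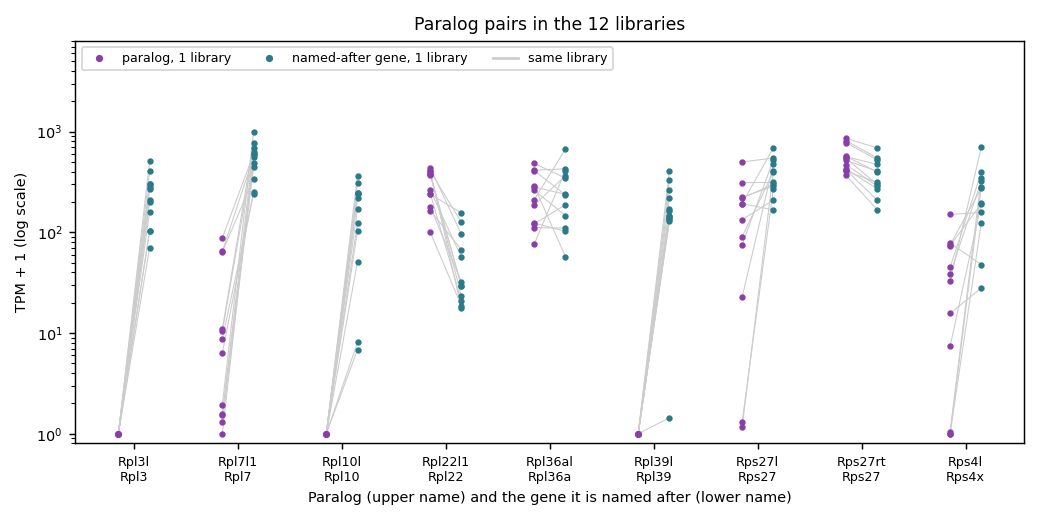
TPM + 1 (log scale) of each paralog (purple, upper name) and the gene it is named after (teal, lower name) in 12 libraries, with grey lines joining values of the same library. Rpl3l, Rpl10l and Rpl39l sit at 0 TPM, Rpl22l1 and Rps27rt lie above their partners in 12 of 12 libraries, and the lines of Rpl36al and Rpl36a cross.

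The balance of the subunits depended on the measure. The log2 ratio of the median TPM of large-subunit members to that of small-subunit members was -0.31 ± 0.13, below 0 in every library, from -0.56 in library 1 to -0.15 in library 11. On CPM (counts scaled to a common library total, without length scaling) it was 0.12 ± 0.23, and with near-identical copies added it was 0.03 ± 0.14, so no direction between subunits is given here. The paralogs, most of them of the large subunit, also bear on it, since the ratio was -0.14 ± 0.19 without them.

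Most members used 1 main transcript. For the 60 members with more than 1 annotated transcript, the leading one held a median of 85.2% of the gene's TPM, and protein-coding transcripts together held 91.9 ± 1.48% of the members' TPM. Processed transcripts held 3.97 ± 1.23%, transcripts with a retained intron 2.34 ± 0.763% and those marked for nonsense-mediated decay 0.245 ± 0.134%. Rps24, a Diamond-Blackfan gene spliced differently between tissues near its 3′ end, was at 100% Rps24-201 within rounding. Only 2 transcripts of it are listed in the deposited tables, and a splice form that is not listed could not be seen. In 8 members the leading transcript held under 50%, among them Rps15a, Rpl7 and Rpl38 with 49.2 ± 16.5%, 48.4 ± 5.28% and 46.7 ± 20.5%. In 5 members the leading transcript was not annotated as protein-coding in GENCODE M21. In Rpl35 and Rpl23 it was a processed transcript without a coding frame, at 91.1 ± 7.28% and 87.8 ± 5.75%. In Rpl12 it was one marked for nonsense-mediated decay, at 74.5 ± 26.0%. Another member was led by a transcript with a retained intron, at 83.5 ± 23.9%, and the leading transcript of Rpl13a has no type there.

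The annotated 5′ ends were read for the TOP motif. A start was counted as TOP where the first base of the leading transcript was C and the next 4 bases were C or T on the transcript's own strand, and 9 of 82 members had it (11.0%), against 242 of 10340 other protein-coding genes (2.34%). With any protein-coding transcript of the gene allowed, it was 22 members (26.8%) against 6.06% of the others. The first 15 bases of the leading transcript are shown for 5 members with the motif, and for 3 of the most abundant members without it, with the pyrimidine run in capitals where it opens the transcript. GENCODE starts can lie some bases away from the start used in these cells, so a missing motif says only that the letters are not at this annotated end.
Rpl32: CTTCCTTCTTCCTCg
Rpl36: CTTCCTgtcccggcc
Rps27rt: CTTTCCggcggtgac
Rps21: CCCTCCTgcccaata
Rpl4: CTTTTCCTgtgggag
Rpl41: gacgacaccgagcac
Rpl26: gtagttctctttcct
Rps29: gttgtcgcacggcgt

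Levels of the motif's carriers spanned the range of the members. Rpl32, with a run of 14 pyrimidines, stood at 733 TPM, Rps21, a small platform protein, at 393 ± 218 TPM, Rpl4 at 222 ± 158 TPM and Rpl37 at 97.3 TPM. In Rpl26 a pyrimidine-rich stretch lies within the 15 bases shown but not at the first base.

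Genes that work with the ribosome were measured in the same libraries. The ribosomal proteins that the symbol rule does not take included Fau (made as a fusion protein) at 790 ± 345 TPM and Rack1 (a signalling scaffold on the small subunit) at 234 ± 163 TPM. Other TOP messages were led by the elongation factor Eef1a1 at 702 ± 288 TPM and Tpt1 at 570 ± 177 TPM, and 12 of 15 were detected in every library.

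Genes for making ribosomes were lower. Of 27 biogenesis genes, 9 were detected in every library, with a median of 25.8 TPM, led by Npm1, a nucleolar chaperone, at 298 ± 166 TPM and Nop10, a pseudouridylation factor, at 216 ± 94.3 TPM. Regulators of TOP translation had a median of 9.27 TPM over 10 genes, with Mtor at 8.89 ± 8.03 TPM and Larp1 at 10.1 ± 12.6 TPM, and Eif4ebp1, a translation repressor, was listed at 0 in all libraries while Eif4ebp2 averaged 6.79 ± 22.8 TPM. No test was made between these lists and the members.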

How the data were processed

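Per the labels, Smart-seq libraries were processed on mm10, and per the text deposited with each sample the annotation was GENCODE M4. For aligner, quantifier and strand setting, nothing is stated: not given in the sources used. Per the file headers, the deposited tables hold expected counts (estimated read numbers, with shared reads split between features), TPM and posterior standard deviations of the counts; the authors computed TPM over all features, spike-ins included, and the TPM of a library sum to 1000000. The tables list 69691 features, and 26248 with numeric identifiers were left out. Symbols, types, coordinates and transcript sequences were taken from GENCODE M21, which uses that assembly, and to which 42462 of 43346 identifiers matched.

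Expected counts were rounded for edgeR 4.0.16 (TMM, intercept-only glmQLFit, upper- and lower-tail F tests of the quasi-dispersion against its trend, Benjamini-Hochberg over all genes). Pairs were tested over 4096 sign patterns with a pseudocount of 1. DESeq2 1.42.0 size factors and limma 3.58.1 (trend of the variance of log2(TPM + 1)) were alternatives. Copies were found with blastn 2.17.0 and coding sequences were aligned with Biopython 1.88. Scripts were tested on simulated data. The posterior SD of a member's count, from the deposited tables, had a median of 0.746% of the count and reached 7.27% for Rps12. PCR reads here carry no molecular identifiers, and limits from a count of 0 cover counting error only. The members, lists, pairs and naming rule (the 10 highest and 10 lowest members, pairs, members called, and the ends of each list) were chosen with earlier results of these data known. Some genes that the rule takes are counted but not reported here by name. Exons of 23 members overlap another gene, which unstranded counting could not separate.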

Additional observations from a re-analysis of the deposited data

How the results depend on the processing

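Of 230 recomputed values, 207 were taken as the same in direction, call or size, 16 moved in size, 6 changed sign and 1 lost its call. Where the value is a count, a move in size includes lost calls: the fall from 9 to 1 with limma is among the 16. The step from 9 to 6 with a mean count of at least 50 was taken as the same. Single pairs gave 135 of the 230 values, and 130 of these stayed the same. They include the 3 pairs with a paralog at 0 throughout, whose direction and call could not change. The count of members less variable than the trend was 14 with no low-count filter and 6 with a mean count of at least 50. It was 1 with limma on log2(TPM + 1), and 7 to 11 with each library left out. Shares over all genes are given above for the main fit and limma alone. Whether the share over all genes moved in the other settings is not shown. The summed TPM became 37594 when rescaled to annotated genes, 48551 without mitochondrial genes, their chromosome 1 copies and Malat1, 17258 on CPM and 44291 with near-identical copies added. The large to small subunit ratio reversed to 0.12 on CPM and to 0.027 with copies added, and was -0.14 without paralogs. The difference of Rpl36al from Rpl36a reversed to 0.0084 on CPM and, without library 2, 9 or 11, to 0.15, 0.084 and 0.020, in a range of -0.28 to 0.15 over all libraries left out in turn. Among the paralog pairs, 8 of 9 passed with any 1 library left out, of which the 3 with a paralog at 0 throughout were bound to pass. Rps27l differed from Rps27 by -0.84 on CPM and no longer passed, and the cause was not tested. The limma and copy alternatives were chosen after the data were seen. A count of 0 allows up to 3 counts, or 0.124 to 0.219 CPM by library, and reads shared with near-identical copies limit the level of single members in a way that depth does not mend. No paired analysis was possible between groups of libraries, because the libraries form 1 group; the paralog pairs are genes compared within a library.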
